A study of Mus musculus with 82 samples.

Results

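Matrix metalloproteinases, ADAMTS proteases and their tissue inhibitors were followed as 10 genes in cultured mouse aortic vascular smooth muscle cells (aVSMC). The genes were taken by name from the count table: the matrix metalloproteinases Mmp2, Mmp9, Mmp11, Mmp14 and Mmp19, the ADAMTS proteases Adamts1, Adamts4 and Adamts5, and the inhibitors Timp2 and Timp3. They are 10 of 55401 genes in the table, 34819 of which were counted at all. No gene on chromosome 9, X, Y or MT has a value above 0 in the table, and 10 of the 23 Mmp genes, 1 of the 4 Timp genes and 3 of the 19 Adamts genes lie on chromosome 9 or X.

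The cells were primary cultures from the aorta of C57BL/6 mice, used at up to 7 passages, and the age and sex of the animals are not given in the sources used here. After 24 h without serum and supplements, the cultures received epidermal growth factor (EGF, 10 µg/L), angiotensin II (AngII, 10 nM), the thromboxane receptor agonist U46619 (1 µM) or combinations of them, and untreated cultures served as control. The growth medium used before that step held the same concentration of EGF for all groups. The 24 h incubation had 7 groups (control, each substance alone, EGF with AngII, EGF with U46619, and all 3 substances) with 1 culture from each of 6 mice per group, 42 libraries in all. The 48 h incubation had 6 groups in 2 batches, each of 5 culture sets. Batch B1 held control, EGF, U46619 and EGF+U46619, and batch B2 held control, EGF, AngII and EGF+AngII, which gives 10 control and 10 EGF libraries and 5 libraries of every other group. The labels assign the 10 culture sets to 5 mice, and 5 of the sets to mouse 7, although the methods of the study state a different mouse for each replicate.

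Matrix metalloproteinases are zinc enzymes that are made as inactive precursors and cut collagens and other matrix proteins once activated. Mmp14 is anchored in the membrane, and with Timp2 as a bridge it activates the secreted gelatinase Mmp2. Adamts1, Adamts4 and Adamts5 cut large proteoglycans such as versican and aggrecan. Timp3 is bound to the matrix and inhibits ADAMTS enzymes as well as metalloproteinases. In the aorta these enzymes and inhibitors take part in the turnover of the medial matrix, and they are known for their part in aneurysm and in plaque remodelling.

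The upstream sequence of members that fell together with U46619 is shown beside that of members that did not pass the test. RefSeq (GRCm38.p6) gave a promoter for 5 of the 10 genes, and each line holds the 250 bases before the annotated start, 5′ to 3′ on the strand of the gene, with the matches of the motifs searched in capitals. The first 3 genes were lower with U46619 after 24 h, and the last 2 did not pass the test in any comparison.
Mmp11 (chr10:75932503-75932752, minus strand): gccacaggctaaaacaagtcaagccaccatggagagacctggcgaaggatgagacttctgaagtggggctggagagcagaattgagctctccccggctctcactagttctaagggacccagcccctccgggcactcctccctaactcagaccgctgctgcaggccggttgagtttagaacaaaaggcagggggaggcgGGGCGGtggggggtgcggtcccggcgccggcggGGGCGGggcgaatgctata
Adamts1 (chr16:85803114-85803363, minus strand): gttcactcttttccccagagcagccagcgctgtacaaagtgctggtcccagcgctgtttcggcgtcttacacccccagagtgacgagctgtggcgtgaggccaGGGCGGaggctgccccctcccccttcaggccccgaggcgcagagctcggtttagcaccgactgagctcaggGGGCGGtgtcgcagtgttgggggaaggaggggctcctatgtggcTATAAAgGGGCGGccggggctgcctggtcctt
Timp2 (chr11:118355412-118355661, minus strand): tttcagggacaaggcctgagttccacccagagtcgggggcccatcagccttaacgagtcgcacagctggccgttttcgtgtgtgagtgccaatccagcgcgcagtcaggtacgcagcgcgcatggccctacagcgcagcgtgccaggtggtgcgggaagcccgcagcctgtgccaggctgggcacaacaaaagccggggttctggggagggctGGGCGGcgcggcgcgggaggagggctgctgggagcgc
Mmp14 (chr14:54431348-54431597, plus strand): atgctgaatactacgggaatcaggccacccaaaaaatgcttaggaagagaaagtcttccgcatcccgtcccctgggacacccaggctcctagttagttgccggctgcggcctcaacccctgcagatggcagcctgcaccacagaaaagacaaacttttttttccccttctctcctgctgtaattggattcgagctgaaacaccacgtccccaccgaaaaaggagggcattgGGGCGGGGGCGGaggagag
Timp3 (chr10:86300162-86300411, plus strand): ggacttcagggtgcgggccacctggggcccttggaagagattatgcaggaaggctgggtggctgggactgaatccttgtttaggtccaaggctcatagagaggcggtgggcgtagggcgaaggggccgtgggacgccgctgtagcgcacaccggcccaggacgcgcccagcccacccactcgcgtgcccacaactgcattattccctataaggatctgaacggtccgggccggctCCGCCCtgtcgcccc

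Searched on both strands were the AP-1 motif TGANTCA, the TEAD motif GGAATG, the GC box GGGCGG, the TATA box TATAAA and the CRE motif TGACGTCA. The GC box was found in all 5 windows, at 3 places in Adamts1, at 2 each in Mmp11 and Mmp14 and at 1 each in Timp2 and Timp3. Of 32851 promoters of the same length, 32.7% hold it. Adamts1 also held the TATA box, 32 bases before the start, a motif found in 12.4% of all promoters. The letters of the AP-1, TEAD and CRE motifs were not in any of the 5 windows, and 6.75%, 12.6% and 1.55% of all promoters hold them. The GC box was thus found in genes that fell as well as in genes that did not pass the test.

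Total counts were 16483529 to 20818809 per library after 24 h and 19936925 to 33916114 after 48 h. Levels are fragments per 1000000 of the TMM-scaled library (FPM). The cultures of a mouse deviated together from their group means, and 42 of 42 libraries at 24 h and 39 of 40 at 48 h were closest to their own mouse or culture set. The exception is the library labelled control of set B2-4, whose mean correlation was −0.338 with its own set and 0.863 with set B2-2. Calls at 48 h that changed without it are therefore given both ways. The sum of 10 smooth muscle markers had a median of 3135 FPM in the 24 h controls. Acta2 had the highest median of the 10 over the 42 libraries of 24 h, at 3341 FPM. In these libraries Smtn ranged from 47.5 to 226 FPM and Myl9 from 92.1 to 1856. Myh11 ranged from 0.149 to 276 FPM, and Myocd was at 0 in 7 of the 42. The sum of 7 endothelial markers ranged from 4.97 to 1653 FPM in the 6 control libraries of 24 h, and Cdh5 is listed at 0 in all libraries. Adipocyte markers summed to 1023 FPM in the control of mouse 6. In bulk RNA, fewer cells of a type and less RNA per cell cannot be told apart.

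Per length, Timp2 was the most abundant of the 10 genes and Mmp9 the least in the untreated cultures. On the scale of FPM per kilobase of exon, the mean level of Timp2 was 732 ± 158.2 (SD, n = 6) at 24 h, followed by Mmp2 with 267 ± 356, Mmp14 with 175.9 ± 80.8 and Mmp11 with 160.3 ± 88.0. The levels of these last 3 overlapped within their SD. Timp3 followed with 77.1 ± 43.6, Adamts1 with 34.0 ± 13.6, Adamts5 with 20.8 ± 11.2 and Mmp19 with 17.8 ± 3.98, and the neighbours in this order again overlapped. Adamts4 was lower, with 5.98 ± 1.80, and Mmp9 was at 0.172 ± 0.108. After 48 h the 5 genes with the lowest levels stood in the same order, and Timp2 was again highest with 653 ± 84.6 (SD, n = 10). The 48 h mean of Mmp2 was 85.2 ± 40.9, below those of Mmp11, Timp3 and Mmp14.

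The gelatinase Mmp2 differed most between the mice after 24 h. Its control level was 3134 FPM in mouse 1, 1387 in mouse 2, 501 in mouse 6, 223 in mouse 4, 100.5 in mouse 5 and 63.1 in mouse 3. The highest was 49.7 times the lowest, compared with 1.92 times for Timp2 and 2.12 times for Mmp19. The order of the mice in Mmp2 was not that of any summed marker list. Mice 1 and 2, with the highest Mmp2, had endothelial sums of 4.97 and 6.57 FPM in the control, the lowest of the 6.

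**Figure D1:**
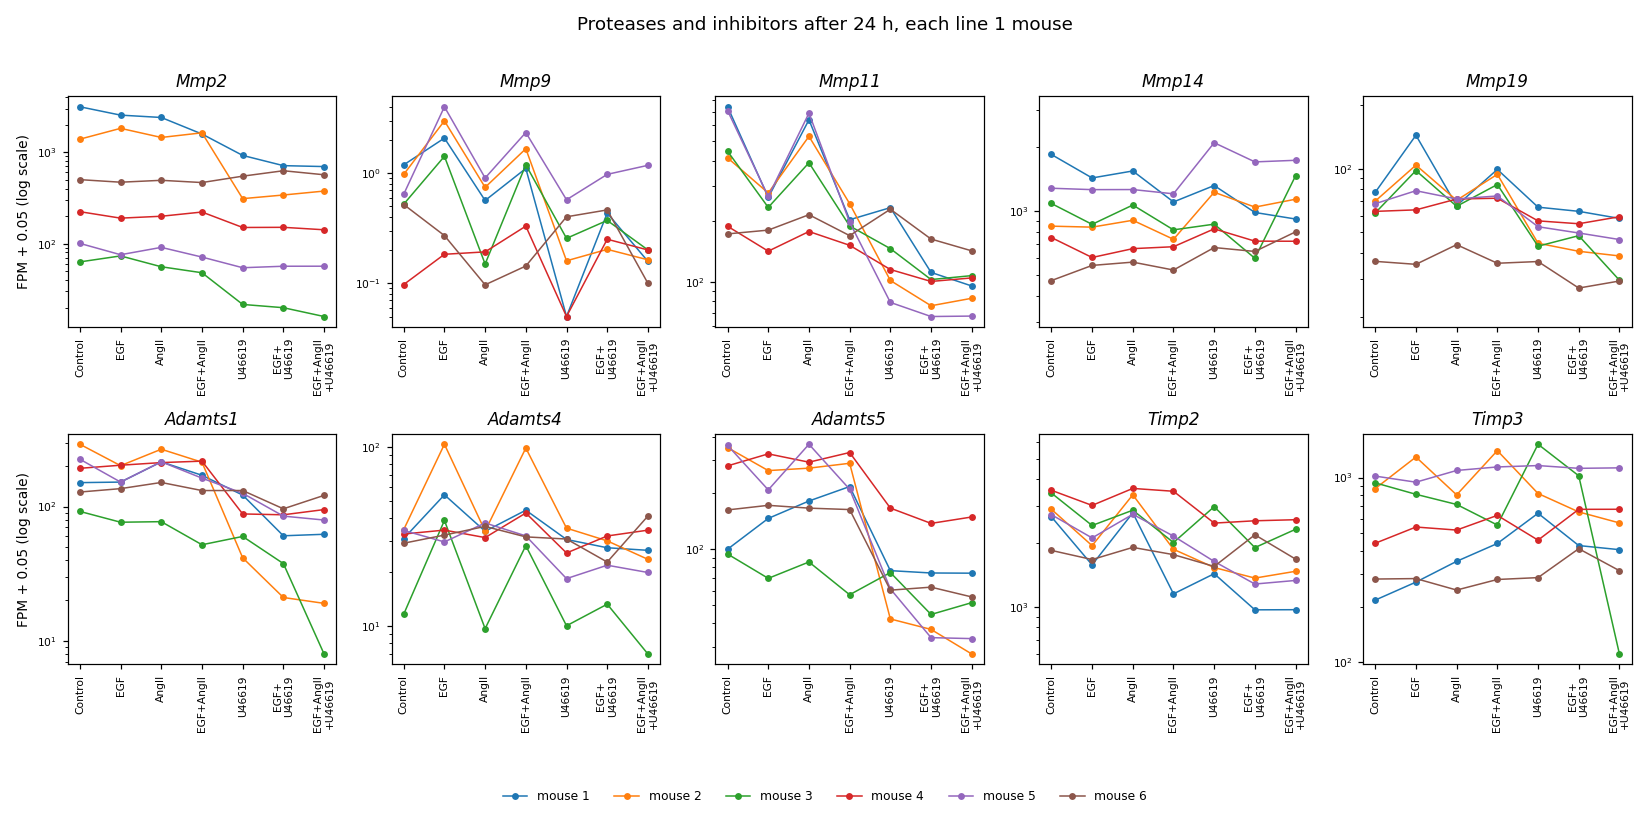
FPM of the 10 genes after 24 h on log axes (0.05 FPM was added so that values of 0 can be drawn), with 1 line per mouse across the 7 groups. Mmp2, Mmp11, Adamts1 and Adamts5 drop at the 3 groups with U46619 on the right of each panel in most mice, while Mmp14 and Timp3 show no common direction.

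U46619 lowered Mmp2, Mmp11, Adamts1, Adamts5 and Timp2 after 24 h. These 5 of the 10 members were differentially expressed genes (DEG), all lower, and the background is 13.9% of 14528 tested genes called lower and 12.9% called higher. A DEG had a false discovery rate (FDR) under 0.05 in both edgeR and DESeq2, and either group averaged 5 FPM or more. Together with EGF the count rose to 6, with Mmp19 added (background 15.8% lower, 16.3% higher). With EGF+AngII+U46619 it was the same number of genes (background 15.7% lower, 17.7% higher). The median log2-fold change of the 10 members was −0.76, −0.67 and −0.98 in the 3 comparisons, against −0.06, −0.05 and −0.04 over all tested genes. These comparisons share the 6 control libraries. The 10 genes were chosen with earlier results of these data known, so these counts and medians describe them and do not test the set.

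Mmp2 ranged from 63.1 FPM over a median of 362 to 3134 in the controls, and from 21.6 over 230.1 to 921 with U46619. The groups overlapped, and within the mice 5 of 6 cultures were lower with U46619, while that of mouse 6 went from 501 to 546 FPM. The log2-fold change was −1.12 ± 0.29 (SE, edgeR FDR = 0.00347). With EGF+U46619 it was −1.11 ± 0.29 (edgeR FDR = 0.00286) and with all 3 substances −1.19 ± 0.29 (edgeR FDR = 0.00139). The addition of EGF left Mmp2 where U46619 alone had brought it: EGF+U46619 against U46619 gave a mean difference within the mice of −0.02 on the log2 scale (SD 0.20, n = 6).

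Mmp9, the other gelatinase, was near the limit of detection. It ranged from 0.0475 to 1.14 FPM in the controls, from 0.133 to 3.95 with EGF and from 0 to 0.523 with U46619. The levels overlapped, and no group reached a mean of 5 FPM, so Mmp9 could not be a DEG in these libraries. The edgeR FDR with U46619 was 0.0496 and the DESeq2 FDR 0.053. Within the mice, 5 of 6 were higher with EGF.

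Mmp11, or stromelysin-3, showed the largest fall of the 10 genes with EGF+U46619. It ranged from 172.9 FPM over a median of 429 to 741 in the controls, from 78.9 over 131 to 234 with U46619, and from 67.1 over 101.4 to 162.99 with EGF+U46619. The controls and the EGF+U46619 cultures did not overlap, and the same was true for EGF+AngII+U46619, where the highest culture had 142 FPM. Mmp11 was the only member without overlap in any comparison, and 1.54% and 1.83% of all tested genes lay below the controls without overlap in these comparisons. U46619 gave a log2-fold change of −1.51 ± 0.31 (SE, edgeR FDR = 0.000405) with U46619, −2.02 ± 0.32 (edgeR FDR = 1.28e-05) with EGF+U46619 and −2.05 ± 0.32 (edgeR FDR = 7.25e-06) with all 3 substances. Its exons overlap those of Chchd10 on the other strand. The counting options listed by the study include none for the strand, and whether the strand was used is not stated.

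Mmp14, the membrane-bound activator of Mmp2, was no DEG. It ranged from 470.3 FPM over a median of 968 to 1849.8 in the controls and from 673 over 1048 to 2102 with U46619. The groups overlapped, and 4 of 6 mice were higher and 2 lower. The log2-fold change was 0.17 ± 0.16 (SE, edgeR FDR = 0.447) with U46619 and −0.10 ± 0.16 (edgeR FDR = 0.641) with EGF+U46619. With all 3 substances it was 0.18 ± 0.16 (edgeR FDR = 0.402), and 0.40 (edgeR FDR = 0.0369) without mouse 1. In mouse 3 the culture with all 3 substances had 1469 FPM of Mmp14 beside 599 with EGF+U46619, and its Timp3 and Adamts1 were the lowest of the 42 libraries.

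Mmp19, a secreted metalloproteinase, was lower with EGF+U46619 and with all 3 substances, but no DEG with U46619 alone (−0.31 on the log2 scale, edgeR FDR = 0.0932). Its level was 36.5 to 77.3 FPM in the controls, 36.4 to 65.7 with U46619 and 27.3 to 62.8 with EGF+U46619. Although the groups overlapped, all 6 mice were lower with U46619 and with EGF+U46619. The change with EGF+U46619 was −0.42 ± 0.15 on the log2 scale (SE, edgeR FDR = 0.0222), and the call was lost without mouse 2 (edgeR FDR = 0.11) and without mouse 5 (edgeR FDR = 0.0859). With all 3 substances it was −0.52 ± 0.15 (edgeR FDR = 0.00461), and this call was lost with only the groups compared (edgeR FDR = 0.083). Its exons overlap those of Tmem198b by 789 bases and of Gm47093 by 212 bases on the other strand.

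Of the ADAMTS proteases, Adamts5 and Adamts1 were lower with U46619 and Adamts4 was not a DEG against control. Adamts5 ranged from 94.1 FPM over a median of 221 to 359.5 in the controls, from 42.2 over 68.1 to 165.8 with U46619 and from 33.5 over 53.6 to 137 with EGF+U46619. The groups overlapped, but all 6 mice were lower in either group. The fit gave a log2-fold change of −1.45 ± 0.34 (SE, edgeR FDR = 0.00149) with U46619 and −1.78 ± 0.34 (edgeR FDR = 0.000127) with EGF+U46619.

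Adamts1 ranged from 92.0 FPM over a median of 171.8 to 291 in the controls, from 41.5 over 105 to 132 with U46619 and from 21.0 over 72.7 to 96.2 with EGF+U46619. With U46619, 5 of 6 mice were lower, and with EGF+U46619 all 6. The log2-fold change was −0.92 ± 0.34 (SE, edgeR FDR = 0.035) and −1.51 ± 0.35 (edgeR FDR = 0.000822), respectively. The call with U46619 alone was lost in 4 of the 6 fits without a mouse, with edgeR FDR values of 0.0611 without mouse 1, 0.12 without mouse 2, 0.0968 without mouse 4 and 0.0899 without mouse 5. Mouse 2 moved most, from 291 FPM in the control to 41.5 with U46619 and 21.0 with EGF+U46619.

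Adamts4 stood at 11.6 to 34.5 FPM in the controls, 9.99 to 35.2 with U46619 and 29.5 to 103.5 with EGF. The EGF cultures of mice 1, 2 and 3 were at 54.0, 103.5 and 38.8 FPM, against 30.8, 34.5 and 11.6 in their controls, and the other 3 mice lay between 29.5 and 34.3. On the log2 scale the change was 0.78 ± 0.25 with EGF (SE, edgeR FDR = 0.112) and −0.24 ± 0.25 with U46619 (edgeR FDR = 0.478), and neither passed the test.

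Of the inhibitors, Timp2 fell and Timp3 was no DEG. Timp2 ranged from 1846 FPM over a median of 2804 to 3548 in the controls, from 1434 over 1595 to 2969 with U46619 and from 969 over 1636 to 2547 with EGF+U46619. The groups overlapped, all 6 mice were lower with U46619, and 5 of 6 were lower with EGF+U46619. The log2-fold change was −0.59 ± 0.17 (SE, edgeR FDR = 0.00616) and −0.77 ± 0.17 (edgeR FDR = 0.000479), respectively.

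Timp3 ranged from 217 FPM over a median of 656 to 1018 in the controls and from 287 over 730.3 to 1514 with U46619. In 5 of 6 mice the U46619 culture was higher, by up to 1.56 on the log2 scale in mouse 1. The log2-fold change of 0.45 ± 0.29 (SE, edgeR FDR = 0.239) did not pass the test, nor did that of 0.32 ± 0.29 with EGF+U46619 (edgeR FDR = 0.392). Timp3 shares 1733 exon bases with Syn3 on the other strand.

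**Figure D2:**
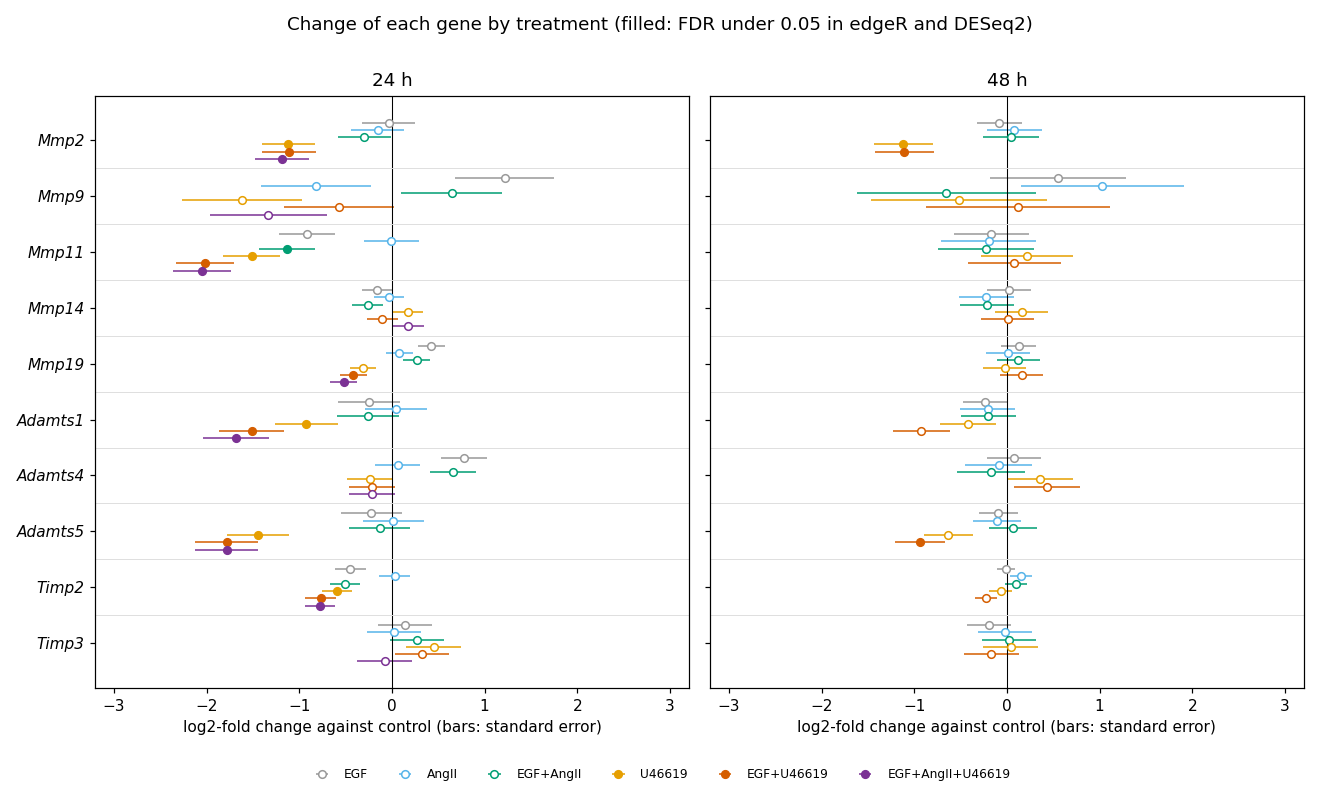
log2-fold change against control with its standard error for each gene and treatment after 24 h (left) and 48 h (right). Filled points are DEG; they lie to the left of 0 for Mmp2, Mmp11, Mmp19, Adamts1, Adamts5 and Timp2.

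The cultures of the 6 mice did not change alike. With 1 culture per mouse and group, a difference between mice and one between cultures cannot be told apart. With U46619, 8 or 9 of the 10 members were lower in mice 1 to 5, but 4 of 10 in mouse 6. The median difference over the members was −1.07 on the log2 scale in mouse 2 and 0.03 in mouse 6. These values include Mmp9 near the limit of detection, and the share of all genes lower in each mouse is not given here. In mouse 6 Mmp2 went from 501 to 546 FPM, Mmp11 from 172.9 to 229 and Adamts1 from 128 to 132, whereas Adamts5 went from 162.1 to 60.3. Mouse 6 had the highest endothelial marker sum in the control with 1653 FPM, and the highest adipocyte sum, and the part of other cell types in these differences was not tested.

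EGF alone changed the genes less. No member was a DEG against control at 24 h by edgeR and DESeq2 together or by either tool alone. Of all tested genes, 0.0138% were called lower and 0.0138% higher by both tools together. At an FDR under 0.05, DESeq2 alone had 292 of the 14528 tested genes and edgeR alone 5. Before adjustment, edgeR placed 5 members below 0.05. At that level, edgeR and DESeq2 shared 2535 of the 14528 tested genes. Mmp11 ranged from 142 to 276 FPM with EGF, and its log2-fold change was −0.92 ± 0.30 (SE, edgeR FDR = 0.119). It passed the test without mouse 6 (edgeR FDR = 0.0483). Mmp19 reached 144 FPM in mouse 1 and 104 in mouse 2 with EGF, and its log2-fold change was 0.42 ± 0.15 (edgeR FDR = 0.13).

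AngII changed no member, by edgeR, by DESeq2 or at an unadjusted edgeR p under 0.05, and 0 of all tested genes were DEG. The largest differences among members above 5 FPM were those of Mmp2 and Mmp19, and Mmp11 stood at 177.7 to 689 FPM with AngII beside 172.9 to 741 in the controls. With EGF+AngII, Mmp11 was the only DEG among the members (background 1.59% lower, 1.54% higher), at 151.7 to 244 FPM, with a log2-fold change of −1.13 ± 0.30 (SE, edgeR FDR = 0.0432). This call was lost in the fits without mouse 1, 2, 3 or 5, where the edgeR FDR was 0.0955 to 0.334. Without mouse 6, Timp2 passed as well (−0.55, edgeR FDR = 0.0365).

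U46619 on top of EGF lowered 6 members relative to EGF alone (background 6.14% lower, 6.73% higher), and Adamts4 and Mmp19 were among them. Adamts4 went from a median of 36.6 FPM with EGF to 25.0 with EGF+U46619 and was lower in all 6 mice, with a log2-fold change of −0.99 ± 0.25 (SE, edgeR FDR = 0.00589). Mmp19 went from a median of 88.2 to 48.9 FPM, also in all 6 mice, with −0.84 ± 0.15 (edgeR FDR = 0.000324). The others were Mmp2, Mmp11, Adamts1 and Adamts5, with −1.07, −1.09, −1.27 and −1.56. Mmp9 had FDR values under 0.05 in both tools but no group mean of 5 FPM. Without mouse 2 the count was 3, as Mmp2, Mmp11 and Adamts4 did not pass (edgeR FDR 0.0914, 0.106 and 0.0601).

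EGF on top of U46619 gave no DEG among the members or among all tested genes, with 0 members by either tool alone and 0 at an unadjusted edgeR p under 0.05. Within the mice, Mmp11, Mmp14 and Adamts1 had lower values with EGF+U46619 than with U46619 in 6 of 6 mice, with mean differences of −0.49, −0.29 and −0.61 on the log2 scale (SD 0.31, 0.17 and 0.36). Mmp9 had higher values in 6 of 6. The share of all tested genes with the same direction in 6 of 6 mice is not given here, so these directions do not set the members apart. The interaction of EGF and U46619 was a DEG for no member, by either tool. Its lowest unadjusted edgeR p-values were 0.0148 for Mmp19 (−0.53 ± 0.21, SE) and 0.0366 for Adamts4 (−0.76 ± 0.35), which were the 2 members under 0.05. At that level before adjustment, edgeR and DESeq2 shared 433 of the 14528 tested genes for the interaction.

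After 48 h fewer members were DEG. With U46619 it was Mmp2 alone (background 1.55% lower, 2.48% higher), and with EGF+U46619 it was Mmp2 and Adamts5 (background 3.01% lower, 3.84% higher). With EGF, AngII and EGF+AngII, and for EGF+U46619 against U46619 or against EGF, no member was a DEG by both tools. For the last of these DESeq2 alone called 2 members, and it had 1332 of the 14528 tested genes with an FDR under 0.05. By both tools the background was 2.2% lower and 2.62% higher. Before adjustment, edgeR placed 3 members below 0.05 in this comparison, and the 2 tools shared 3154 of the 14528 tested genes at that level. With the culture set as block, by which the cultures deviated together, EGF+U46619 against EGF gave 3 DEG, each lower in 5 of 5 sets. They were Mmp2 (−0.75, edgeR FDR = 2.8e-05), Adamts1 (−0.85, edgeR FDR = 0.0236) and Adamts5 (−0.75, edgeR FDR = 0.0421). The background above is that of the fit with mouse as a term. The share of all genes called with the culture set as block is not given here. Without the deviating control library Mmp2 (edgeR FDR = 0.0404) and Adamts5 (edgeR FDR = 0.0157) passed in the same comparison. For EGF, AngII and EGF+AngII no member had an edgeR p under 0.05.

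**Figure D3:**
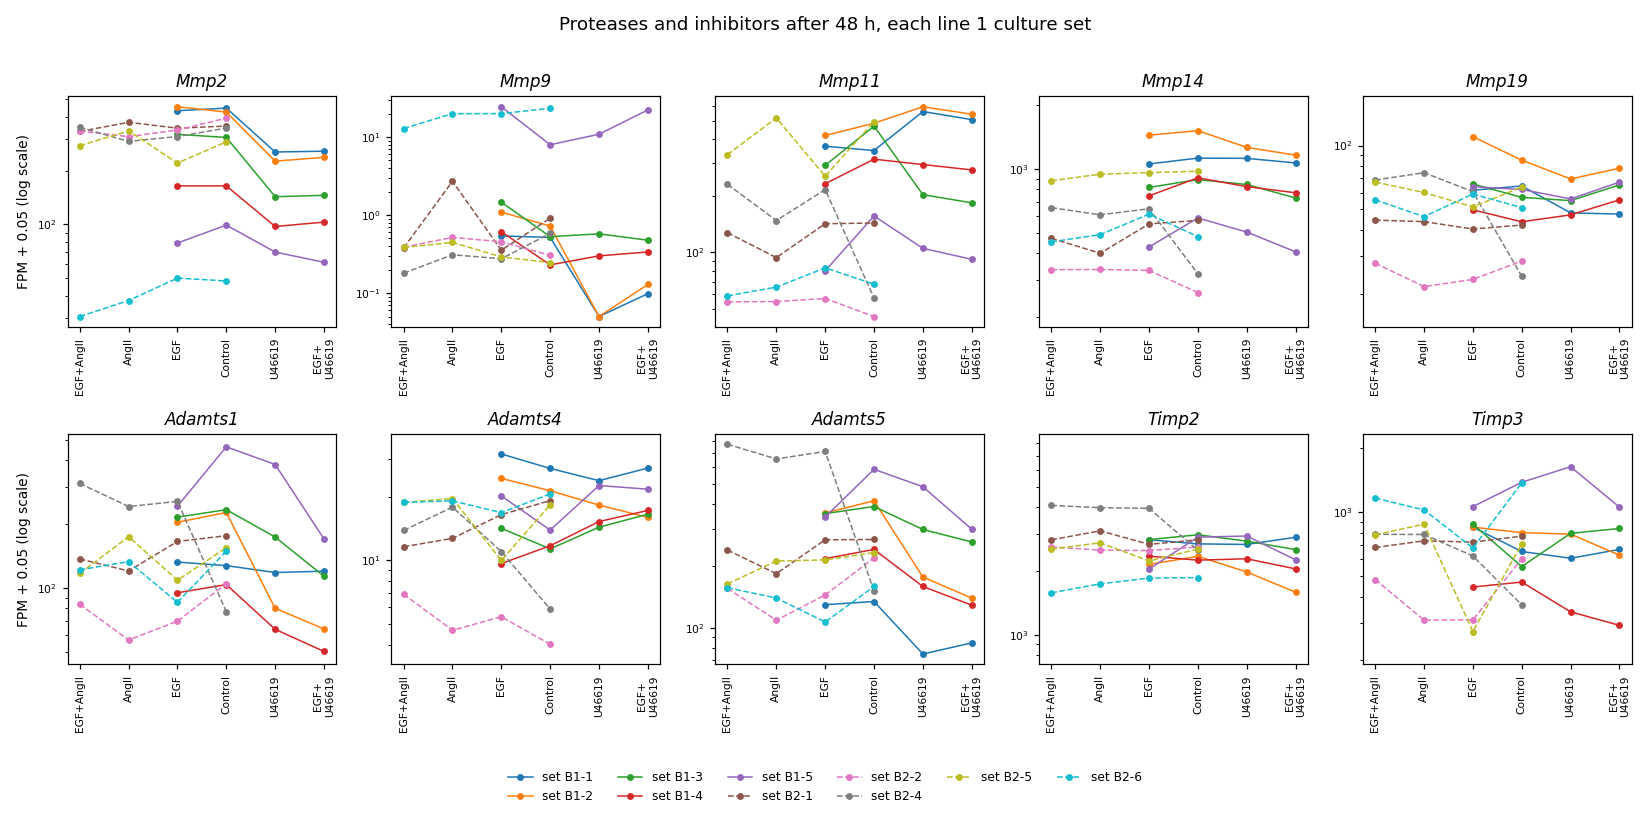
FPM of the 10 genes after 48 h on log axes (0.05 FPM was added), with 1 line per culture set; solid lines are batch B1 and dashed lines batch B2, which share the control and EGF groups in the middle. Mmp2 and Adamts5 drop from control to U46619 in all 5 sets of batch B1, Mmp9 is above 5 FPM in sets B1-5 and B2-6, and the control of set B2-4 departs from the other cultures of its set in Mmp11, Mmp14, Mmp19, Timp2, Adamts1 and Adamts5.

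In batch B1, Mmp2 in the controls was 447, 424, 306, 164.3 and 99.2 FPM in sets B1-1 to B1-5. With U46619 it was 254, 226, 143, 97.4 and 70.1 FPM in the same order, and with EGF+U46619 257, 237, 145, 103 and 61.5. All 5 sets were lower in either group, although the groups overlapped. The mean difference within the sets was −0.81 on the log2 scale (SD 0.22, n = 5) for U46619, and −0.81 (SD 0.16) for EGF+U46619. The fit over all groups, with mouse as a term and the controls of both batches, gave −1.12 ± 0.32 (SE, edgeR FDR = 0.036) and −1.11 ± 0.32 (edgeR FDR = 0.0269).

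The call of Mmp2 depended on how the 48 h sets were fitted. With the culture set as block, the log2-fold change with U46619 was −0.84 (edgeR FDR = 1.6e-05). With batch B1 alone it was −0.81 (edgeR FDR = 0.107), and with batch as a further term −0.87 (edgeR FDR = 0.165). Without the deviating control library it was −1.01 (edgeR FDR = 0.057). Of the fits without a culture set, those without B1-2, B1-3, B1-4, B2-1, B2-2 or B2-6 lost the call, with edgeR FDR values of 0.0541 to 0.125. The call with EGF+U46619 was lost without B1-2, B1-3, B1-4 or B2-2, with 0.0504 to 0.1, with batch B1 alone (edgeR FDR = 0.0861) and with batch as a further term (edgeR FDR = 0.125).

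Adamts5 stood at 134, 412, 387, 239.8 and 586 FPM in the controls of batch B1, at 74.7, 176.4, 299.7, 158.7 and 483 with U46619 and at 84.6, 139, 261, 129 and 301 with EGF+U46619. All 5 sets were lower in either group. The fit gave −0.63 ± 0.27 with U46619 (SE, edgeR FDR = 0.161) and −0.94 ± 0.27 with EGF+U46619 (edgeR FDR = 0.0285). Without the deviating control library Adamts5 passed with U46619 as well (−0.77, edgeR FDR = 0.0365). That library had 150.7 FPM of Adamts5, beside 715, 658 and 775 in the EGF, AngII and EGF+AngII cultures of its set. The call with EGF+U46619 was lost without any 1 of the 5 sets of batch B1, with edgeR FDR values of 0.0525 to 0.106, and with batch as a further term (edgeR FDR = 0.0817).

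Adamts1 was lower in all 5 sets with EGF+U46619, from 127, 227, 234, 104 and 463 FPM in the controls to 119.9, 64.0, 113, 50.1 and 170.2. The fit gave −0.92 ± 0.31 (SE), with an edgeR FDR of 0.0571 and a DESeq2 FDR of 0.0231. With the culture set as block it passed in edgeR (−1.06, FDR = 0.00462), as it did without the deviating control library (−1.05, FDR = 0.0108). The set B1-1, where it moved by 0.09 on the log2 scale, was the exception among the 5.

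Mmp11, which fell most after 24 h, was no DEG after 48 h. With U46619 it was higher than the control in sets B1-1 and B1-2 (562 and 596 FPM against 349 and 487) and lower in sets B1-3 to B1-5 (203, 294 and 105 against 470.2, 313 and 156.3). The log2-fold change was 0.22 ± 0.50 (SE, edgeR FDR = 0.828) with U46619 and 0.08 ± 0.50 (edgeR FDR = 0.939) with EGF+U46619. Within the sets of batch B1 the mean difference had the opposite sign, −0.18 (SD 0.74, n = 5) with U46619 and −0.32 (SD 0.75) with EGF+U46619, and 3 of 5 sets were lower in either group. The controls of the 5 sets labelled mouse 7 ranged from 45.6 to 497 FPM of Mmp11. Timp2, which was called lower at 24 h, changed by −0.07 ± 0.12 (SE, edgeR FDR = 0.772) with U46619 at 48 h. Whether any change differs between the incubation times was not tested, since the mice and the sequencing differ as well.

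Mmp9 rose above 5 FPM in the 48 h cultures of sets B1-5 and B2-6 regardless of treatment. In set B1-5 it was 7.90 FPM in the control, 10.8 with U46619, and 24.3 and 22.2 in the EGF and EGF+U46619 cultures. In set B2-6 it was 23.3, 19.9, 19.9 and 12.8 FPM in control, EGF, AngII and EGF+AngII. All other 48 h libraries lay at 0 to 2.65 FPM. These 2 sets had fibroblast marker sums of 1439 to 2757 FPM, but the EGF, AngII and EGF+AngII cultures of set B2-4, without such Mmp9, had 2975, 2714 and 2783 FPM. Their smooth muscle sums were 415 to 2130 FPM and their leukocyte sums 44.8 to 69.2 FPM, while the highest leukocyte sums, 578 to 893 FPM, were those of set B2-1. The part of these cells in the level of Mmp9 was not tested.

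Ratios of a protease to its inhibitor within a library do not depend on library scaling, and 5 pairs were compared for 3 treatments at each time. After 24 h Adamts5/Timp3 was lower in 6 of 6 mice with U46619 (change −1.81 on the log2 scale, SD 0.89) and with EGF+U46619 (−2.08, SD 0.91), and Adamts1/Timp3 was lower in 6 of 6 mice with EGF+U46619 (−1.88, SD 0.84). The exact two-sided sign-flip permutation test gave p = 0.03125 for each of these, the smallest value that 6 mice allow, and p = 0.134 after adjustment over the 15 tests. Mmp14/Timp2 was higher in 5 of 6 mice with U46619 (0.77, SD 0.61) and with EGF+U46619 (0.68, SD 0.62), with an exact permutation p = 0.0625 and adjusted p = 0.134. Mmp2/Timp2 changed by −0.54 (SD 0.70) with U46619. After 48 h Mmp2/Timp2, Adamts1/Timp3 and Adamts5/Timp3 were lower in 5 of 5 sets with U46619 and with EGF+U46619, with changes of −0.93 to −0.58 on the log2 scale and an exact permutation p = 0.0625, the smallest that 5 sets allow, and adjusted p = 0.156. No ratio passed the correction. With 5 sets no ratio could reach p under 0.05 in the permutation test even before adjustment. With 6 mice a ratio could pass only if most of the 15 tests reached the smallest value. No conclusion is therefore drawn from ratios that did not pass. At 48 h the test took culture sets of the same labelled mouse as separate units.

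**Figure D4:**
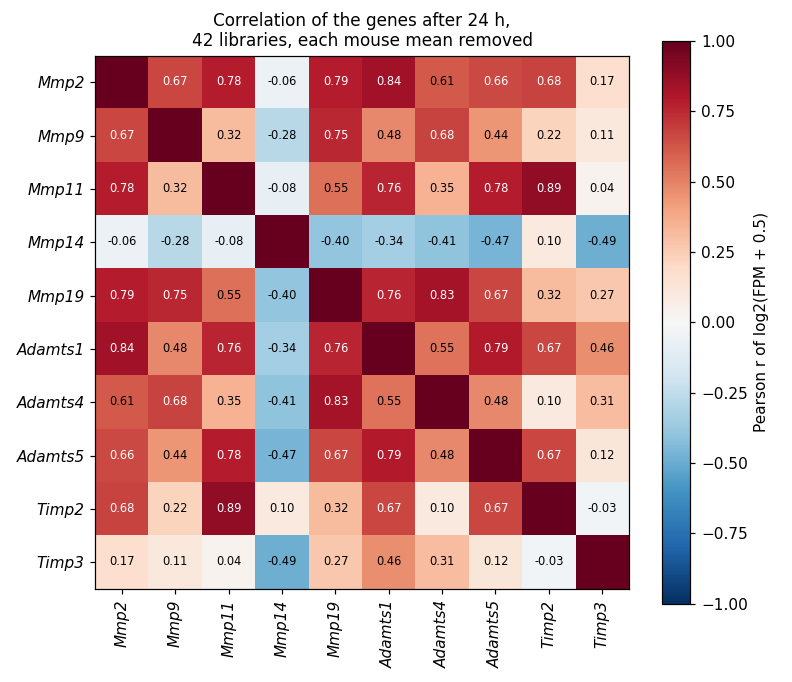
Pearson correlation between the 10 genes over the 42 libraries of 24 h, computed on log2(FPM + 0.5) after the mean of each mouse was removed. Most pairs are positive, with Mmp11 and Timp2 highest at 0.89, and the row of Mmp14 is mostly negative, lowest with Timp3 at −0.49.

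Across the 42 libraries of 24 h the members fell into a common pattern and exceptions from it. The correlations are descriptions, since the libraries share mice and treatments. Mmp11 and Timp2 had r = 0.89, Mmp2 and Adamts1 0.84, Mmp19 and Adamts4 0.83, and Adamts1 and Adamts5 0.79. Mmp14 ran against several others, with r = −0.49 to Timp3 and −0.47 to Adamts5. The first of these was −0.32 without the EGF+AngII+U46619 library of mouse 3, and the second was −0.48. Timp2 and Timp3, the inhibitors, had r = −0.03.

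The 2 genes most like each member were searched among 10162 genes, by the same correlation over the 42 libraries. Adamts5 was closest to Adam23 (r = 0.95), a membrane protein of the ADAM family, and to Marcks (0.94). Mmp2 was closest to Srgap1 (0.95) and Ralgds (0.94), Adamts1 to Pik3r1 (0.94) and Fzd1 (0.94), and Timp2 to Tprgl (0.96) and Tom1l2 (0.95). Mmp19 was closest to the collagen gene Col3a1 (0.90) and Tril (0.88), and Adamts4 to the laminin gene Lamb1 (0.88) and the collagen gene Col15a1 (0.85). Col15a1 (0.83) and Dnm1 (0.82) were closest to Mmp9. Mmp11 was closest to Gstt1 (0.94) and A4galt (0.93), and Timp3 to Mon2 (0.90) and Dgkd (0.88). Mmp14 was closest to Cd63 (0.88), which encodes a tetraspanin, and to its pseudogene Cd63-ps (0.87), whose reads may be shared with Cd63.

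Other proteases of the same families moved in both directions with U46619 after 24 h. Of 8 further MMP genes, 6 passed the filter and Mmp15 (−1.85), Mmp23 (−1.27) and Mmp28 (−0.64) were lower on the log2 scale. Of 12 further ADAMTS genes, 8 passed the filter; Adamts2, which trims procollagen, was lower (−0.96), as were Adamts9 (−0.75) and Adamts10 (−0.44), and Adamts6 (1.12) and Adamts12 (0.99) were higher. Of 5 ADAMTS-like genes, which lack the protease domain, Adamtsl4 (−0.83) and Adamtsl5 (−0.48) were lower. Of 9 ADAM genes, Adam9 (1.10) and Adam19 (0.73) were higher, and Adam22 (−2.18), Adam33 (−1.19), Adam23 (−1.18) and Adam15 (−0.44) were lower. The same numbers of genes were DEG with EGF+U46619, with Adamts14 (0.55) in place of Adamts12. Adam15, Adam19, Adamts10 and Adamts14 are named to complete these counts, after their values were seen.

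Reck and Cst3 fell among the other inhibitors. Of 5 genes, 4 passed the filter, and Reck, a membrane-anchored inhibitor of metalloproteinases, was lower with U46619 (−0.90 ± 0.20, SE, edgeR FDR = 0.000707), as was the cystatin Cst3 (−0.88). Of 9 cathepsin genes, 8 passed the filter and 4 were lower with U46619, of which Ctsf moved most (−2.15). With EGF+U46619, 7 were lower, and Ctsf was again first (−2.40).

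Plaur and Cd44 rose among the genes for protease activation and clearance. Among the genes higher with U46619 were Plaur, the urokinase receptor (2.95 ± 0.41, SE, edgeR FDR = 9.5e-06) and Cd44, the hyaluronan receptor (2.101 ± 0.28, edgeR FDR = 4.56e-06). Lower were Pcsk5 (−1.57), a proprotein convertase, Serpine2 (−1.21), a protease inhibitor, and Lrp1 (−0.47), a receptor that takes up proteases, and the last 2 were named after their values were seen. Of 9 substrate genes, 8 passed the filter; Col4a1 (0.60) and Col4a2 (0.76) of basement membrane were higher, and Col3a1 (−1.44) and Col1a2 (−0.68) of fibrillar collagen were lower. After 48 h with U46619, Plaur (1.39) and Cd44 (0.94) were again higher, and Ctsf (−1.13) and Col3a1 (−1.54) again lower. With EGF+U46619 at 48 h Mmp15 (−1.31), Adamts6 (1.12), Adam19 (0.82), Adamtsl4 (−0.52), Pcsk6 (−0.95) and elastin, Eln (−3.17), were DEG as well. Of these, Adamts6 (edgeR FDR = 0.071), Adam19 (edgeR FDR = 0.0741) and Eln (−2.36, edgeR FDR = 0.0506) lost the call without the deviating control library.

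Markers of other cells moved with U46619 in the same 24 h libraries. Of 6 fibroblast markers 5 were lower with U46619 and all 6 with EGF+U46619, and their summed level was 378 to 3148 FPM in the controls, 160.6 to 1890.2 with U46619 and 164.1 to 979.5 with EGF+U46619. Of 10 smooth muscle markers 4 were higher with U46619, and the sum was 1661 to 7236 FPM in the controls and 5219 to 20285 with U46619. No endothelial marker was a DEG, and the sum was 2.70 to 1435 FPM with U46619. Of 7 leukocyte and macrophage markers Csf1r was higher and Lyz2 and Cd14 were lower, while Ptprc was at 0 in 41 of 42 libraries and C1qa in 39. Of 3 adipocyte markers Adipoq was lower. The part of these cells in the lower levels of Mmp2, Mmp11, Adamts1, Adamts5 and Timp2 was not tested.

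Pi16 and Scara5 of the 6 fibroblast markers were lower with U46619 after 48 h (−1.58 and −3.31 on the log2 scale) and with EGF+U46619 (−1.77 and −3.35). The summed level in sets B1-1 to B1-5 was 361, 910.1, 742, 262 and 2429 FPM in the controls, and 177.02, 242, 492, 231 and 1643 FPM with U46619. With EGF+U46619 it was 214, 244, 488, 255 and 1439 FPM, and all 5 sets were lower in either group. Mylk, 1 of the 10 smooth muscle markers, was lower with EGF+U46619 (−1.44), a call lost without the deviating control library (edgeR FDR = 0.0634). The part of these cells in the lower levels of Mmp2, Adamts5 and Adamts1 at 48 h was not tested.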

How the data were processed

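RNA was sequenced from 82 cultures of mouse aVSMC, 42 after 24 h and 40 after 48 h. The authors aligned the reads with HISAT2 2.1.0 to the mm10 genome and deposited counts per Ensembl gene from featureCounts, with multi-mapping reads included. Multi-mapping reads can add to genes with near-identical copies. Groups and mouse numbers were taken from the labels.

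From the deposited counts, edgeR 4.0.16 (quasi-likelihood test) was run in R 4.3.3 on the genes kept by filterByExpr (14653 at 24 h, 15796 at 48 h, 14528 at both). DESeq2 1.42.0 (Wald test) was run on all genes with a count at that incubation time, with its own independent filtering. Both had mouse and treatment as terms and all groups of an incubation time in the same fit. The tested genes, among which calls were made, are the 14528 kept at both times. FPM were counts per 1000000 of the TMM-scaled library, and 0.5 FPM was added before logarithms of single values. A SE is the log2-fold change divided by the square root of F. Adjustment was by Benjamini-Hochberg, in edgeR over the genes kept at that incubation time and in DESeq2 over the genes left by its independent filtering. Both fits were run on simulated data with an effect of mouse but none of culture set or batch, which does not cover the 48 h design.

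Cultures of the same mouse or set deviated together: the correlation of their deviations from the group means was over 0.1 in 126 of 126 pairs at 24 h (median 0.776) and in 57 of 60 pairs at 48 h (median 0.804). The pairing comes from the mouse numbers in the labels. At 48 h a mouse can have several culture sets, and p-values then measure the spread between cultures.

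Named were the 10 members, from each list of related genes the called ones with the largest change, at most 4 per list and comparison, and for each member the 2 genes most correlated with it. The members and lists were chosen with earlier results of these data known. Python 3.11.15, pandas 2.3.3, numpy 2.4.6, scipy 1.17.1 and matplotlib 3.10.9 were used for the rest. Exon overlaps were read from GENCODE annotation of GRCm38. Alternatives were other normalizations, filters, tests and terms, single batches, and fits without 1 mouse or culture set. The fits without the deviating control library and with a minimum of a 1.5-fold change were chosen after seeing the data. Some results on genes outside the 10 members are not reported here.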

Additional observations from a re-analysis of the deposited data

Results flagged for a closer look

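In 15 of 130 groups of 5 to 10 libraries, 1 library stood apart from the others of its group by Dixon's test, which flags about 1 in 20 groups by chance. After 24 h, Mmp19 was lowest in mouse 6, with 36.5 FPM in the control, 43.7 with AngII and 35.7 with EGF+AngII. Adamts4 was lowest in mouse 3, with 11.6 FPM in the control and 9.63 with AngII, and highest in mouse 2 with EGF+AngII, at 98.6 FPM. Adamts1 was lowest in mouse 3 with EGF+AngII, at 51.9 FPM. Mmp9 was highest in mouse 5 with EGF+AngII+U46619, at 1.13 FPM.

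After 48 h, Mmp2 was lowest in set B2-6, with 37.6 FPM with AngII and 30.6 with EGF+AngII. Mmp9 was highest in set B1-5, with 10.8 FPM with U46619 and 22.2 with EGF+U46619, and in set B2-6 with EGF+AngII, at 12.8 FPM. Timp3 was lowest in set B2-2 with AngII, at 309.3 FPM, and Adamts5 highest in set B2-4 with EGF+AngII, at 775 FPM. Their causes were not tested.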

How the results depend on the processing

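At 24 h the counts of members called were 5 with U46619, 6 with EGF+U46619 and 6 with all 3 substances, and fits without 1 mouse gave 4 to 5, 5 to 6 and 6 to 7, where the added member was Mmp14, called higher without mouse 1. Without the replicate block (the mouse term), the count with U46619 was 2, with EGF+AngII 0 and for EGF+U46619 against EGF 0. For EGF+AngII it was 2 with DESeq2 alone, 2 with the likelihood ratio test and 0 with only the groups compared, and 0 to 2 without 1 mouse. Of the 14528 tested genes, DESeq2 alone had 1397 with an FDR under 0.05 at any FPM for EGF+AngII, against 455 DEG. Without 1 mouse the count of members was 0 to 1 for EGF and 3 to 7 for EGF+U46619 against EGF. Apart from the tools alone, the share of all genes called under an alternative is not given here, at 24 h or at 48 h.

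At 48 h the count of 1 with U46619 became 0 without a filter on low counts, without the replicate block, with only the groups compared, with batch as a further term and within batch B1, and was 0 to 2 without 1 culture set. The count of 2 with EGF+U46619 became 0 without the replicate block, with only the groups compared and with batch as a further term, and was 0 to 3 without 1 culture set; without B1-5 it was 1. It was 3, with Adamts1 added, with DESeq2 alone, the likelihood ratio test, at least 10 counts in every library, the culture set as replicate block and without the deviating control library. Of the 14528 tested genes, DESeq2 alone had 1811 with an FDR under 0.05 at any FPM for EGF+U46619, against 995 DEG. Within batch B1 the count of members was 2, with Adamts1 called in place of Mmp2. For EGF+U46619 against EGF the count of 0 became 2 with DESeq2 alone, 2 with the likelihood ratio test, 2 with at least 10 counts in every library, 2 without the deviating control library and 3 with the culture set as replicate block, and was 0 to 1 without 1 culture set. In this comparison DESeq2 alone had 1332 of the tested genes with an FDR under 0.05 at any FPM, against 699 DEG. The causes were not tested. No member called in a comparison changed its direction under any alternative run.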
